A study of Zea mays with 2 samples.

Results

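Solitary MNase hypersensitive sites of maize leaf are sites that stand alone on the chromosome arms, with no other site within 50 kb on either side. They were chosen by the summit positions in the authors' merged peak list, after leaving out a window of 30 Mb around each of the 10 centromeres. The rule found 2532 solitary sites, 4.07% of the 62219 merged sites on the arms and 3.79% of all 66801 merged sites. The comparisons below set them against the other 59687 arm sites and against the 12569 arm sites whose nearest neighbour lies 10 to 50 kb away, the class closest to them in isolation.

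Micrococcal nuclease (MNase) cuts DNA that is not wrapped in a nucleosome, so light digestion releases short fragments from chromatin that is free of nucleosomes or held by other proteins. In plants such hypersensitive chromatin is known at promoters, at the ends of genes and at distal regulatory elements, and in maize much of it lies far from genes, between blocks of repeats. A site without neighbours is one small opening in a long stretch in which no other was called.

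The study mapped these sites by MH-seq, which sequences the small fragments freed by MNase, in leaf of 10-day-old plants of the inbred line B73. There is 1 group with 2 replicates: formaldehyde-fixed nuclei treated with 100 U MNase, with fragments of 40 to 100 bp recovered, and tissue collected from 10 plants per the labels. There is no control digestion and no second tissue to compare with. Whether the replicates came from separate collections is not stated, so what separates them may be technical only. Replicate 1 held 74443 peaks, replicate 2 held 60518, and the read depth behind them is unknown. Coordinates are 1-based on B73 RefGen_v4. No gene annotation or sequence of that build was used, so genes, repeats and motifs at these sites were not analysed here.

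The strongest solitary site stood far above the others. This 168 bp site, on chromosome 7 at 38726636 to 38726803, was enriched 56.8-fold over background in the merged list. Replicate 1 gave it 56.0-fold and replicate 2 gave 46.8-fold. Its neighbours were 84.8 kb to the left and 222.7 kb to the right, and neither replicate had another peak within 50 kb of it. It ranked 5 among all merged sites, 5 in replicate 1 and 6 in replicate 2, and its summits in the replicates were at 38726714 and 38726716.

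The second strongest solitary site was present in 1 replicate only. It lay on chromosome 6 at 4121603 to 4121822 (220 bp), 69.5 kb and 69.2 kb from its neighbours. It was enriched 32.1-fold by the merged list and 31.9-fold by replicate 1, where it ranked 40, and replicate 2 had no peak there. The −log10 q was 186.2 in the merged list and 185.5 in replicate 1. At sites called in both replicates the merged value was usually the larger one: the merged −log10 q exceeded both replicates' values at 98.2% of the 1947 such solitary sites. Among the 388 solitary sites called in replicate 1 alone, it exceeded the replicate 1 value at 82.2%, as it did at this chromosome 6 site. The numbers in the authors' peak names ran without a gap in each of the 3 lists. Why replicate 2 lacks a peak there was not tested.

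The other 8 of the 10 strongest were called in both libraries. On chromosome 1 a site at 301955778 to 301956036 had a merged fold enrichment of 29.7, with 27.5 in replicate 1 and 25.7 in replicate 2. On chromosome 9 a site at 38447860 to 38448106 had 26.9, with 31.5 and 23.8 in the replicates. On chromosome 4 a site at 42909221 to 42909436 had 25.9, with 26.3 and 21.1. These 3 had no other replicate peak within 50 kb in either list.

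The remaining 5 of the 10 ran from 22.5 to 25.9 in fold enrichment. One, on chromosome 5 at 181432677 to 181433009, had 26.3 in replicate 1 and 24.2 in replicate 2, and a second one on that chromosome at 147838829 to 147839064 had 24.5 and 16.5. Another, on chromosome 6 at 82757514 to 82757988 and the widest of the 10 at 475 bp, had 28.4 and 20.8, and the one on chromosome 8 at 94602635 to 94603097 had 26.1 and 18.0. The last, on chromosome 1 at 299061878 to 299062018 and the narrowest of the 10 at 141 bp, had 25.6 and 21.4. Replicate 1 gave the higher value at each of the 9 sites among the 10 that both replicates called.

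The emptiness around solitary sites varied widely. The nearest other merged summit was a median of 68.2 kb away, the upper quartile was 87.4 kb and the farthest was 368.1 kb. It lay beyond 100 kb for 423 sites (16.7%) and beyond 200 kb for 17. On the more open side the median gap was 112.8 kb, and the stretch between both neighbours measured a median of 185.9 kb and at most 1008 kb. The 7 sites without a neighbour on one side were the first or last merged site of their chromosome. Just inside the limit of the rule, 92 sites with a neighbour 50 to 51 kb away had a median fold enrichment of 9.58, and just outside it 93 sites at 49 to 50 kb had 8.76.

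The most isolated sites were not the strongest. The site farthest from any other lay on chromosome 7 at 92791354 to 92791437 (84 bp), with neighbours 368.1 kb and 593.5 kb away. It was enriched only 5.30-fold by the merged list and 6.17-fold by replicate 2, and replicate 1 had no peak there. Next came chromosome 5 at 128379625 to 128379759, 356.0 kb from its nearest neighbour, with a merged fold enrichment of 9.59, 9.91 in replicate 1 and 7.18 in replicate 2. On chromosome 3, the site at 42023475 to 42023659, 293.8 kb from its nearest neighbour, had 11.8, with 13.8 and 8.99 in the replicates.

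The other 2 of the 5 most isolated sites differed in breadth. On chromosome 8, the site at 32311627 to 32311829 (203 bp) had a merged fold enrichment of 5.92 and 6.48 in replicate 1, with no peak in replicate 2. On chromosome 9, the site at 79123888 to 79124571 (684 bp) had 9.13, with 9.86 and 10.2 in the replicates. Over all 2532 members, Spearman's rho between nearest distance and fold enrichment was 0.014, and between nearest distance and width it was -0.019. These are descriptions over sites of one merged list.

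Of all arm sites, 4.07% are solitary, a share for single sites. Counting a neighbour on either side, which is a looser measure, 1126 solitary sites (44.5%) had an adjoining merged site that was solitary too. The rule itself contributes to this, since the neighbour of a solitary site already has over 50 kb free on one side, and the values are given as a description. There were 472 strings of 2 or more consecutive solitary sites and 131 of 3 or more. The longest held 7 sites over 1449 kb of chromosome 7, between summits at 72230861 and 73679538, with fold enrichments from 6.93 to 14.8, and 6 of the 7 were called in both replicates. Of the 3749 neighbouring sites that were not solitary themselves, 46.1% had another summit within 5 kb and 61.7% within 10 kb.

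Solitary sites were stronger than other arm sites. Their median fold enrichment was 8.88 (quartiles 6.32 and 11.7, range 5.00 to 56.8), against 7.40 (5.92 and 9.85, range 5.00 to 93.9) for the other arm sites. The ratio of medians was above 1 on 10 of 10 chromosomes, with a mean log2 ratio of 0.26 ± 0.04 (SD over 10 chromosomes), or 1.19-fold. Flipping the sign of the chromosomes' log2 ratios in all possible ways, an exact two-sided permutation test, gave p = 0.00195, the smallest it can give, and 0.00781 after adjustment over the 4 measures tested. The chromosomes share the same libraries, so such p-values measure evenness over chromosomes and not recurrence over plants. A fold enrichment of at least 10 was reached by 39.1% of solitary sites and 24.0% of other arm sites, and one of at least 20 by 1.11% and 0.767%. Among sites 10 to 50 kb from a neighbour these shares were 37.1% and 1.65%, the latter above that of solitary sites. The solitary sites numbered 6 of the 100 and 69 of the 1000 (6.9%) strongest arm sites, where 4.07% of all arm sites are solitary. These counts were not tested. Chosen by the same rule in the replicate 1 list alone, the log2 ratio was 0.15 (adjusted exact permutation p = 0.00586).

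Most of that difference was already present at distances below 50 kb. The median fold enrichment was 7.06 for sites within 1 kb of another summit, 6.97 at 1 to 5 kb, 8.04 at 5 to 10 kb, 8.49 at 10 to 25 kb and 8.67 at 25 to 50 kb. Among solitary sites it was 8.66 at 50 to 75 kb, 9.39 at 75 to 100 kb, 8.96 at 100 to 200 kb and 9.13 beyond 200 kb. Against the arm sites 10 to 50 kb from a neighbour, the mean log2 ratio was 0.05 ± 0.04, and it was above 0 on 8 of 10 chromosomes (p = 0.0117 by the exact permutation test, adjusted 0.0469). In the replicate 1 list alone the medians of these 2 classes were equal, at 8.28, and in the replicate 2 list they were 8.44 for solitary peaks and 8.12 for the others. Fold enrichment is a ratio to a background estimated by the peak caller, and whether neighbouring peaks enter that background was not tested.

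**Figure D1:**
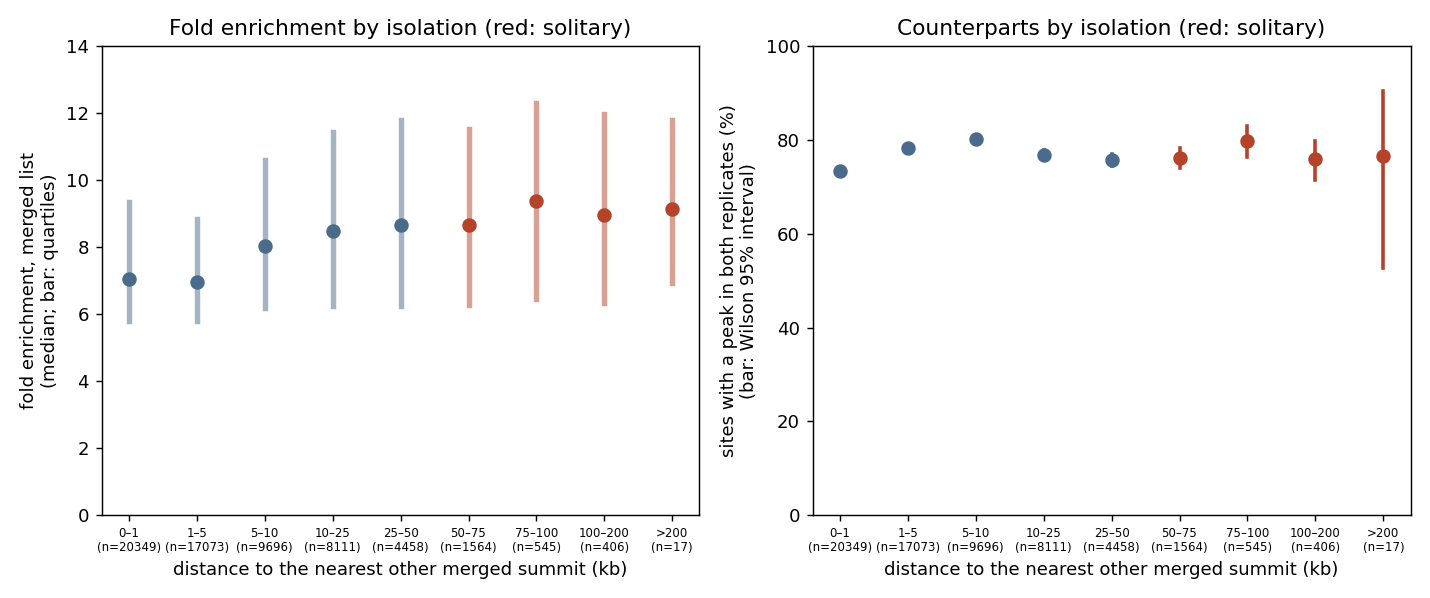
Left, median fold enrichment in the merged list (points, with quartiles as bars) by distance to the nearest other merged summit in kb; right, the share of sites with a peak in both replicates, with Wilson 95% intervals. Blue classes are other arm sites and red classes are solitary sites. The median rises from 7.06 within 1 kb to 8.49 at 10 to 25 kb and lies between 8.66 and 9.39 among solitary sites.

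The widths of solitary sites had 2 maxima. The most filled 20 bp bin was 80 to 99 bp with 309 sites (12.2%), only 120 sites measured 120 to 139 bp, and the second maximum, 181 sites, was at 180 to 199 bp. Peaks of 60 to 79 bp made up 5.53% of solitary sites and 2.37% of other arm sites. The median width was 211 bp (quartiles 127 and 311, range 52 to 982), against 220 bp in other arm sites, and the mean log2 ratio of -0.05 ± 0.07 over chromosomes did not pass the test (exact sign-flip permutation p = 0.0488, adjusted 0.0651).

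Narrow peaks, those under 130 bp, were somewhat more frequent among solitary sites than among all other arm sites. That limit was taken over from an earlier look at these data, so the p-values here do not allow for its choice. They made up 25.5% (645 sites, Wilson 95% interval 23.8 to 27.2%) of solitary sites and 22.4% of other arm sites. The mean difference was 2.70 ± 2.22 percentage points, positive on 9 of 10 chromosomes (p = 0.00586 by the exact sign-flip permutation test, adjusted 0.0117). Against the sites 10 to 50 kb from a neighbour it was 0.482 ± 2.41 points and did not pass (exact permutation p = 0.559, adjusted 0.559).

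**Figure D2:**
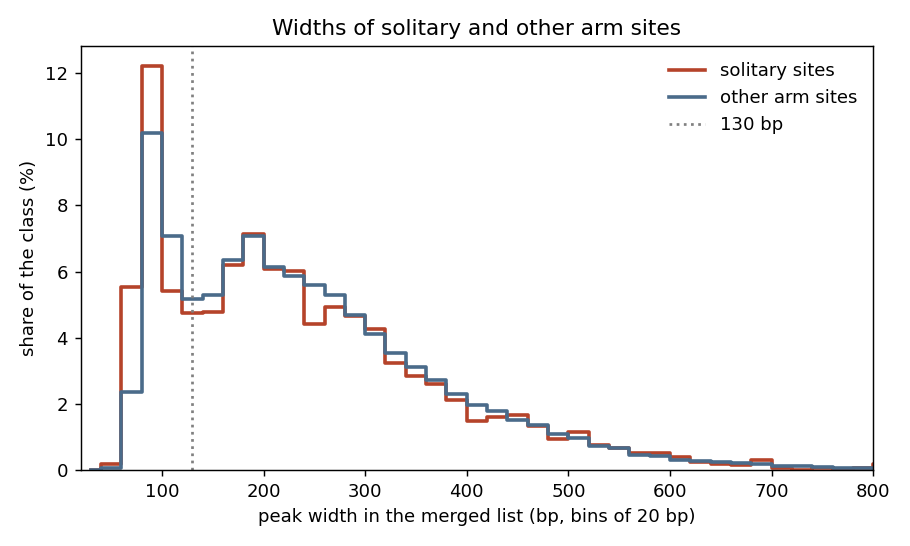
Share of solitary sites (red) and other arm sites (blue) in each 20 bp bin of merged peak width, up to 800 bp; the dotted line marks 130 bp. Solitary sites exceed the others in the bins of 60 to 99 bp, and both classes have their second maximum at 180 to 199 bp.

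Narrow and wider solitary sites differed in strength and in detection. The 645 narrow ones had a median fold enrichment of 5.80 and at most 19.4, and 35.0% of them (31.5 to 38.8%) had a peak in both replicates. The 1887 wider ones had a median of 10.0, and 91.2% (89.8 to 92.4%) had one in both. Fold enrichment and width were related over the members, with a Spearman's rho of 0.57. All 49 solitary sites of 600 bp or more were called in both replicates. Among other arm sites the shares called in both were 42.8% of narrow ones, 86.3% of wider ones and 97.3% of those of 600 bp or more. Among sites 10 to 50 kb from a neighbour they were 34.8%, 90.1% and 98.1%. These differences between classes were not tested.

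The 5 widest solitary sites measured 819 to 982 bp and were of moderate strength. The widest lay on chromosome 3 at 228817366 to 228818347 (982 bp), enriched 10.1-fold by the merged list, 12.1-fold by replicate 1 and 9.92-fold by replicate 2, with peaks of 975 and 920 bp in the replicates. The one on chromosome 9 at 83444668 to 83445528 (861 bp) had 8.75, with 10.1 and 8.59 in the replicates. The third, on chromosome 3 at 47522844 to 47523682 (839 bp), had 7.81, with 10.0 and 8.10, but its strongest replicate peaks were only 359 and 285 bp wide.

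The remaining 2 of the 5 widest were weaker. Another on chromosome 3, at 114436739 to 114437572 (834 bp), had a merged fold enrichment of 5.71, with 5.38 in replicate 1 and 6.97 in replicate 2. Another on chromosome 9, at 112609579 to 112610397 (819 bp), had 6.66, with 8.49 and 6.27.

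Averaged over groups of similar strength, solitary sites were narrower and less often called in both replicates than other arm sites, but not in the strongest group for either the narrow share or the share called in both. Arm sites were ranked by fold enrichment into 5 equal groups. Averages over the groups were taken within each chromosome, weighting each group by its number of solitary sites. In the weakest group the median width was 89 bp for solitary and 134 bp for other arm sites, and in the strongest group, which holds 850 of the solitary sites, it was 281 and 287 bp. The narrow share was 73.4% and 48.4% in the weakest group and 4.24% and 5.07% in the strongest. Averaged over the groups, the log2 ratio of widths was -0.21 ± 0.05, negative on 10 of 10 chromosomes, and the narrow share was higher by 6.80 ± 2.15 points on 10 of 10 chromosomes. The exact sign-flip permutation p was 0.00195 for both, the smallest possible, and stayed so after adjustment over 3 measures. Against sites 10 to 50 kb from a neighbour, compared in the same way, the width ratio was -0.07 ± 0.05 (exact permutation p = 0.00781, adjusted 0.0234) and the narrow share differed by 1.42 ± 2.35 points (exact permutation p = 0.0996, adjusted 0.149). Sites 10 to 50 kb from a neighbour had a median width of 94 bp in the weakest group and 295 bp in the strongest. Their narrow shares there were 68.1% and 3.69%. Within the 2 weakest groups the median −log10 q was 10.9 and 17.5 for solitary sites, against 18.2 and 26.5 for other arm sites. For sites 10 to 50 kb from a neighbour it was 11.5 and 18.2. Solitary and other arm sites of similar fold enrichment thus differed in their q.

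**Figure D3:**
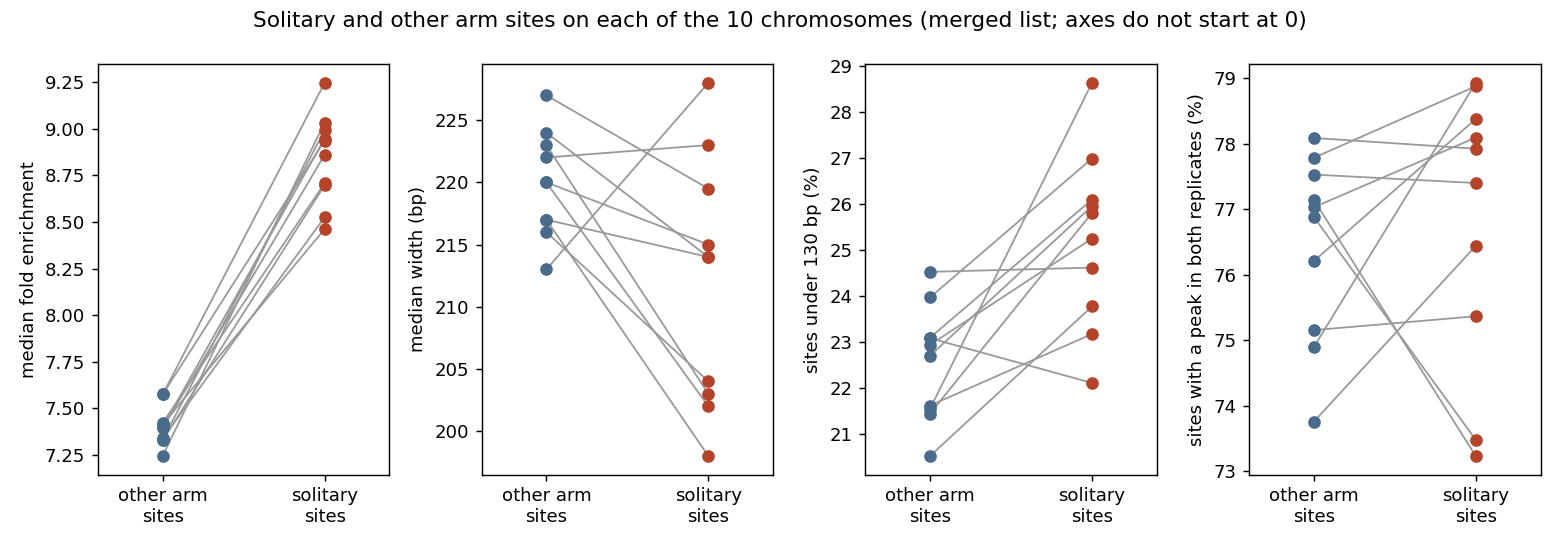
Values of other arm sites (blue) and solitary sites (red) on each of the 10 chromosomes, joined by a line for each chromosome: median fold enrichment, median width in bp, share of sites under 130 bp and share with a peak in both replicates. Every line rises in the first panel, and the lines cross in the last.

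Most solitary sites had a counterpart in both replicates, a peak overlapping them by at least 1 bp. There were 1947 of them (76.9%, Wilson 95% interval 75.2 to 78.5%), against 76.5% over all merged peaks and 76.5% over other arm sites. The mean difference from other arm sites over chromosomes was 0.365 ± 2.50 percentage points, positive on 6 of 10 chromosomes (p = 0.652 by the exact sign-flip permutation test, adjusted 0.652). A further 388 (15.3%) had a counterpart in replicate 1 alone, 127 (5.02%) in replicate 2 alone and 70 (2.76%) in neither. Over other arm sites these shares were 15.9%, 5.87% and 1.65%, and over sites 10 to 50 kb from a neighbour 16.2%, 4.89% and 2.44%. Their differences from solitary sites were not tested. Sites with both had a median fold enrichment of 10.0 and a median width of 250 bp, and those with replicate 1 alone had 5.58 and 94 bp. The merged list is made for these libraries, so these overlaps are not independent recurrence.

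The share depended on strength. From the weakest to the strongest group of fold enrichment, 11.9%, 54.0%, 89.2%, 97.4% and 99.3% of solitary sites had a counterpart in both replicates. For other arm sites the shares were 25.1%, 68.7%, 92.9%, 98.2% and 98.8%, so solitary sites were lower in 4 groups and not in the strongest, and for sites 10 to 50 kb from a neighbour they were 12.6%, 55.7%, 89.4%, 97.5% and 98.8%. The groups match fold enrichment but not q, as given above. Averaged over the groups with the same weights, the difference of solitary from other arm sites was -4.67 ± 1.17 points, negative on 10 of 10 chromosomes (p = 0.00195 by the exact sign-flip permutation test, adjusted 0.00195). From the sites 10 to 50 kb away they differed by -0.236 ± 0.863 points (exact permutation p = 0.402, adjusted 0.402).

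Choosing the sites in one replicate and looking for them in the other avoids the merged list. By the same rule replicate 1 held 2321 solitary peaks, of which 62.4% (Wilson 95% interval 60.4 to 64.4%) overlapped a replicate 2 peak, against 70.2% of its other arm peaks and 69.5% of all its peaks. The mean difference was -7.66 ± 3.56 points, negative on 10 of 10 chromosomes (p = 0.00195 by the exact sign-flip permutation test, adjusted 0.00781 over 8 tests). Replicate 2 held 2875 solitary peaks, of which 87.5% (86.3 to 88.7%) overlapped a replicate 1 peak, against 86.4% of its other arm peaks and 86.5% of all its peaks. That difference of 0.910 ± 2.06 points did not pass (exact permutation p = 0.197, adjusted 0.263). Compared with peaks 10 to 50 kb from a neighbour, the differences were -2.07 ± 4.18 points in replicate 1 (adjusted exact permutation p = 0.244) and -0.411 ± 1.93 in replicate 2 (adjusted exact permutation p = 0.514). Averaged over groups of fold enrichment, the difference from other arm peaks was -8.84 ± 1.77 points in replicate 1 (adjusted exact permutation p = 0.00781). In replicate 2 it was -2.34 ± 1.88, negative on 9 of 10 chromosomes (adjusted exact permutation p = 0.0208). From peaks 10 to 50 kb from a neighbour it was -1.64 ± 1.83 in replicate 1 (adjusted exact permutation p = 0.0391). In replicate 2 that difference was -0.690 ± 1.91 (adjusted exact permutation p = 0.317).

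Being solitary carried over between replicates in part. Of the solitary replicate 1 peaks with a replicate 2 counterpart, 79.3% had a counterpart that was solitary in the replicate 2 list, against 2.96% for the other arm peaks of replicate 1. In the other direction the shares were 45.7% and 0.732%. The rule contributes to these contrasts, since a peak with close neighbours in 1 list is unlikely to be solitary in the other. They are given as a description. Replicate 1, with the longer list, had the smaller number of solitary peaks.

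Each replicate also held peaks near solitary sites that are not in the merged list. Of the members with a counterpart in replicate 1, 64.0% (62.0 to 65.9%) had no other replicate 1 summit within 50 kb, and the share was 87.8% (86.3 to 89.1%) in replicate 2, a mean of 75.9% ± 16.8 (SD, n = 2). The 1133 additional replicate 1 peaks were weak and small, with medians of 5.38 for fold enrichment and 80 bp for width. Of them, 85.3% were narrow, and the medians of the whole replicate 1 list were 7.57 and 185 bp. The 331 in replicate 2 had 5.35 and 83 bp, against 7.29 and 184 bp in its whole list. Only 2.03% of those in replicate 1 and 7.55% of those in replicate 2 overlapped a peak of the other replicate. Over all peaks of the lists these shares were 69.5% and 86.5%. The additional peaks are by choice absent from the merged list. That choice can itself favour weak peaks of 1 replicate, so these values are a description. The fold enrichments in these lists start at 5.00, so these peaks lay close to the lower end. In all, 1123 members (44.4%) were called in both replicates and had no other summit within 50 kb in either, with a median fold enrichment of 10.3 and a median width of 248 bp.

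Where both replicates called a solitary site, their values ran together. Over these 1947 sites the median fold enrichment was 11.1 in replicate 1 and 9.0 in replicate 2. Their median widths were 226 and 195 bp, and Pearson's r of the log2 values was 0.79. Other arm sites had median widths of 226 and 200 bp and an r of 0.77. Sites 10 to 50 kb from a neighbour had 234 and 202 bp and an r of 0.80. The lists were made separately, so levels are set side by side only as a description. The values were within 1.5 times of each other at 83.6% of sites, compared with 87.4% of other arm sites and 84.6% of those 10 to 50 kb from a neighbour. The summits lay a median of 13 bp apart, within 10 bp at 42.4% of sites and within 50 bp at 84.3%, compared with a median of 14 bp for other arm sites.

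Replicate 1 exceeded replicate 2 by over 2 times at 26 solitary sites, and the reverse occurred at none. Replicate 1 was the higher by the median in the other classes too. Over sites called in both replicates, the median log2 ratio of replicate 1 to replicate 2 was 0.27 for solitary sites. It was 0.20 for other arm sites and 0.25 for those 10 to 50 kb from a neighbour. A ratio above 2 in either direction was found at 1.34% of solitary sites called in both replicates, 1.09% of such other arm sites and 1.58% of those 10 to 50 kb from a neighbour. The largest ratio, 5.13, was at chromosome 7, 81240072 to 81240279, where replicate 1 had a fold enrichment of 31.0 and replicate 2 had 6.03. There the merged −log10 q of 160.5 was below the 176.6 of replicate 1, and replicate 2 had 10.8. Of the 850 solitary sites in the strongest group, 6 had no counterpart in one replicate, and in each of the 6 it was replicate 2 that lacked it. Besides the chromosome 6 site at 4121603 to 4121822 these were on chromosome 6 at 20034700 to 20034964 and 24335224 to 24335455, on chromosome 9 at 39540747 to 39541067, and on chromosome 4 at 190185226 to 190185354 and 59832976 to 59833244. Their replicate 1 fold enrichments were 18.8, 21.9, 23.5, 17.3 and 16.0. Which replicate lacked a peak was not counted for strong sites of the other classes.

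**Figure D4:**
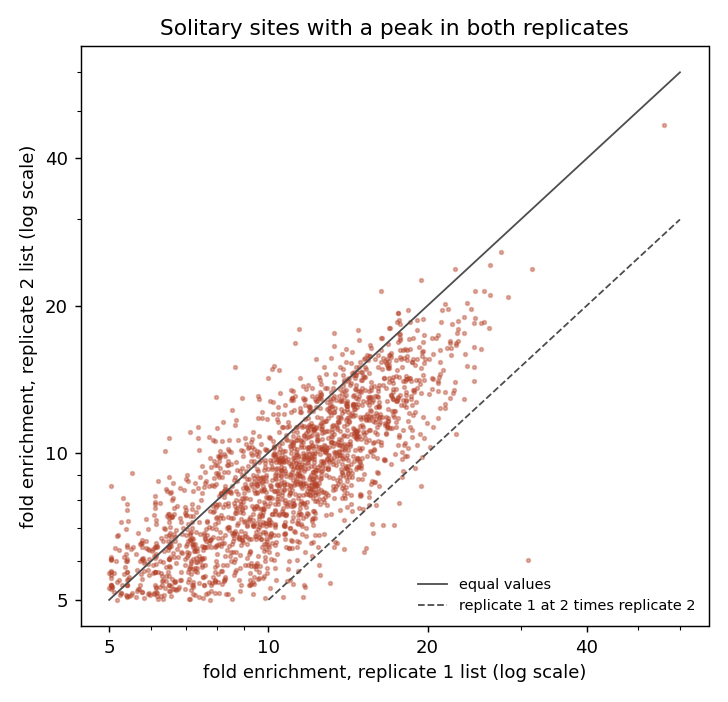
Fold enrichment in replicate 1 (horizontal, log scale) and replicate 2 (vertical, log scale) of the 1947 solitary sites with a peak in both lists, 1 point per site. The solid line marks equal values and the dashed line replicate 1 at 2 times replicate 2. The 26 points below the dashed line include the site at 31.0 and 6.03, and the point at the upper right is the chromosome 7 site at 56.0 and 46.8.

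Solitary sites were found on every arm of every chromosome. Where they lie follows in part from the rule, since sparse stretches leave more sites alone, so positions are given as a description. They numbered 376 on chromosome 1 and 177 on chromosome 10, and from 1.22 per Mb of arm on chromosome 8 to 1.57 on chromosome 4. From the chromosome end to the centromere window, each arm was divided into 10 equal parts. The outermost part held 0.869 solitary sites per Mb, 1.71% of its sites, and the innermost held 1.98 per Mb, 9.28% of its sites, while the density of all sites fell from 50.8 to 21.3 per Mb. In these parts the median fold enrichment of solitary sites lay between 8.34 and 9.23, above that of the other arm sites in each part, which lay between 7.26 and 7.83. Inside the centromere windows, which the rule leaves out, 647 of 4582 sites (14.1%) were as isolated.

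**Figure D5:**
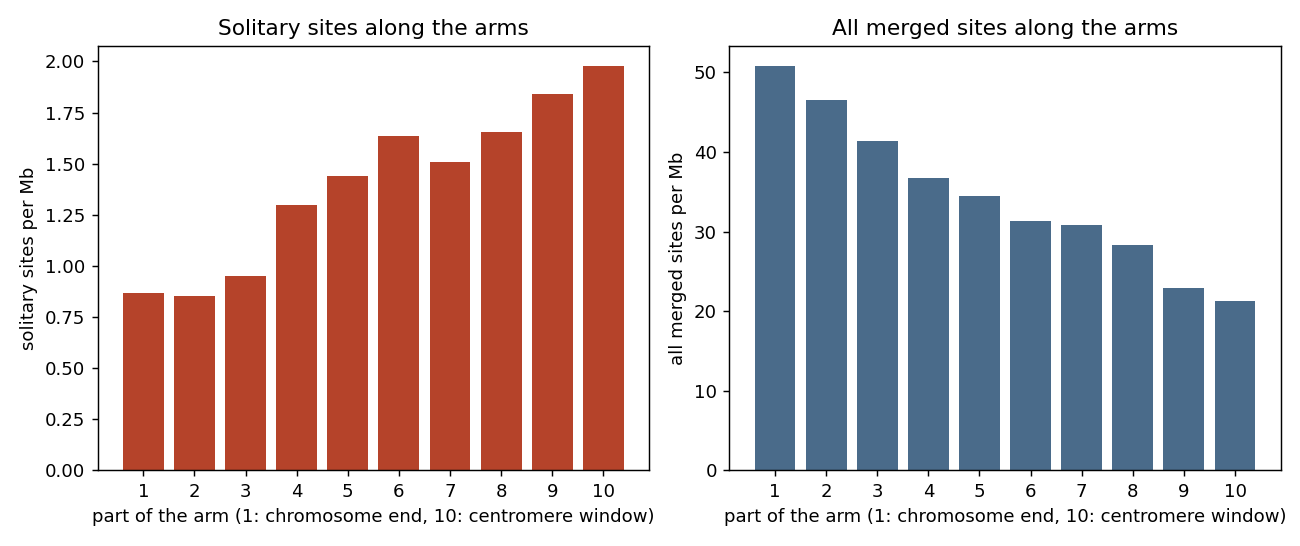
Solitary sites per Mb (left) and all merged sites per Mb (right) in 10 equal parts of the chromosome arms, summed over the arms of 10 chromosomes, from the chromosome end (1) to the centromere window (10). Solitary sites go from 0.869 to 1.98 per Mb as all sites go from 50.8 to 21.3.

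Single arms and windows departed from this average. The first arm of chromosome 10 had the highest density, 1.97 solitary sites per Mb or 7.09% of its sites, and the first arm of chromosome 8 the lowest, 1.08 per Mb or 2.99%. On the first arm of chromosome 6, which carries the nucleolus organizer in maize, 58 sites were solitary (6.16% of its sites). Their median fold enrichment was 8.20, and 62.1% had a counterpart in both replicates. On the first arms of chromosomes 7 to 10 these values ran from 8.34 to 8.65 and from 72.1 to 76.9%. Over all solitary sites the share was 76.9%, and these differences were not tested. The 1 Mb window with most solitary sites was on chromosome 4 at 134000001 to 135000000, where 7 of 23 merged sites were solitary. On chromosome 3 at 101000001 to 102000000, 6 of 8 were.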

How the data were processed

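The data are 3 peak lists from MH-seq of B73 maize leaf: 1 for each of 2 replicates and 1 merged list for both. The submitters' processing notes name B73 RefGen_v4 as the build and MACS2, Bowtie2, SAMtools 1.5, fastp 0.20.0, deepTools and ChIPseeker as tools. Settings, thresholds and the way of merging: not given in the sources used here. The deposited values per peak are a fold enrichment (a ratio to background), a −log10 q, a summit offset, and a score that was not used. Read depth is unknown, so Wilson intervals cover counting error over peaks only.

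Solitary sites were found with Python 3.11.15 (numpy 2.4.6, pandas 2.3.3, scipy 1.17.1). Peaks were compared over the 10 chromosomes, as log2 ratios of medians or differences of shares, by exact two-sided sign-flip permutation tests (smallest p 0.00195) with Benjamini-Hochberg adjustment. The chromosomes are not replicates of the experiment, so these p-values cover evenness over chromosomes only. The calculation of the rule and the contrasts was checked on simulated peaks with planted answers. That check covers the calculation only and not the results. Named sites are the 10 strongest, 5 most isolated and 5 widest; the sites that lack a replicate or differ most between replicates, the windows and the longest string were picked after their values were seen. The members, width limit and tests were chosen with earlier results of these data known.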

Additional observations from a re-analysis of the deposited data

How the results depend on the processing

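The number of solitary sites, 2532, was 6990 with a limit of 25 kb and 423 with 100 kb, and 2321 to 2875 in the single replicates' lists. The higher fold enrichment of solitary sites kept its direction and call under all 8 alternatives, with log2 ratios from 0.05 to 0.27. In the single replicates' lists the ratios against other arm peaks were 0.15 to 0.23. The lowest, 0.05, was against merged sites 10 to 50 kb from a neighbour (adjusted exact permutation p = 0.0469). In the replicate 1 list, solitary peaks and peaks 10 to 50 kb from a neighbour had equal medians, at 8.28. The width ratio of -0.05, which did not pass, passed with peaks within 100 bp joined (-0.084), with the centromere windows kept in (-0.084), within groups of fold enrichment (-0.21, and -0.069 against sites 10 to 50 kb from a neighbour), and in the single lists (-0.24 to -0.059). The narrow excess of 2.70 points no longer passed with a −log10 q of at least 10 (1.66), a limit of 100 kb (2.60), or against sites 10 to 50 kb from a neighbour (0.482, and 1.42 within groups of fold enrichment); it was 2.36 to 9.61 in the single lists. The difference in counterparts, 0.365 points, passed with an overlap of 50% of both peaks (2.54). It changed sign with limits of 25 kb (-0.593) and 100 kb (-0.930), with the q filter (-0.506), with joining (-0.416), with the windows kept in (-0.868), within groups of fold enrichment (-4.67, and -0.236 against sites 10 to 50 kb from a neighbour) and when chosen in replicate 1 and looked up in replicate 2 (-7.66). The cause of these changes was not tested. The share without another replicate summit, 75.9%, ran from 64.8 to 91.2% over 3 alternatives, each within 1 SD (16.8) of it; 91.2%, with the q filter, lies above both replicates' own values of 64.0 and 87.8%. The comparison within groups against sites 10 to 50 kb away and the look-ups across replicates were chosen after seeing the data. No paired analysis was possible because there is only 1 group. Near a fold enrichment of 5 the lack of a peak does not show the lack of hypersensitivity, which also limits which sites count as solitary.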
